A study of Mus musculus with 6 samples.

Results

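Cadherins are transmembrane proteins that join neighbouring cells through calcium-dependent binding of their extracellular repeats. The genes described here are the numbered cadherins (Cdh) and the protocadherins that lie outside the clustered alpha, beta and gamma arrays (Pcdh followed by a number), chosen by gene symbol alone. They were 35 of the 24060 genes in the count table, 23 cadherins and 12 non-clustered protocadherins. RNA-seq counts of retinal ganglion cells (RGCs), the neurons whose axons form the optic nerve, were compared between 3 samples from embryonic day 18 (E18) and 3 samples from postnatal day 5 (P5), which span an age at which purified RGCs are known to lose much of their capacity for axon growth. All were C57BL/6 mice with no genotype or treatment named. The RGCs were purified by immunopanning: papain-dissociated retinas were cleared of macrophages on an antibody and the RGCs were then caught on an antibody to Thy1 (CD90). Samples are called by their replicate numbers, 1, 3 and 4 at E18 and 6, 8 and 9 at P5. The labels do not say whether a sample is 1 litter or a pool, and the column of E18 replicate 1 carries the numbers 1, 2 and 5. The p-values therefore measure only the spread between these samples.

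Classical cadherins bind catenins at the membrane and through them the actin cytoskeleton. Type I cadherins, such as the neural N-cadherin Cdh2, are spread widely over a tissue, whereas the type II cadherins are restricted to subsets of neurons, and in the retina they are known for marking RGC and bipolar cell types and for matching axons and dendrites to their partners. The non-clustered protocadherins do not bind catenins in the classical way. Those of the delta group are split by their cytoplasmic motifs into delta-1 members, which carry a site for protein phosphatase 1, and delta-2 members, several of which recruit the actin-regulating WAVE complex.

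Of the 35 genes, 31 passed the expression filter of edgeR and were tested, 2 were higher at E18 (Cdh2 and Cdh24), 18 were lower at E18 than at P5 and 11 did not pass the adjusted p of 0.05. Cdh5, Cdh16, Cdh17 and Cdh19 were not tested. Of all 16449 genes tested, 43.4% were called in either direction, 20.8% higher and 22.5% lower at E18, so that 18 of 31 (58.1%) stands beside a background of 22.5%. A difference of at least 2-fold was called lower at E18 in 12 members and higher in 1 (Cdh24), where all tested genes gave 9.53% and 6.39%. The log2 fold changes, always written as E18 over P5, ran from -2.93 to 1.14 with a median of -0.55, beside a median of 0.00 over all tested genes. Levels are given as CPM, the counts of a gene per 1000000 counts of the TMM-normalized library size. The values in parentheses after a gene's levels are its log2 fold change, the standard error and the adjusted p of edgeR's quasi-likelihood test. Summed over all members they came to 2045, 2140 and 2188 CPM at E18 and to 2806, 2537 and 3003 CPM at P5. The 3 P5 sums all lay above the 3 E18 sums. In purified populations such as these, fewer cells of a type and less RNA per cell cannot be told apart.

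**Figure D1:**
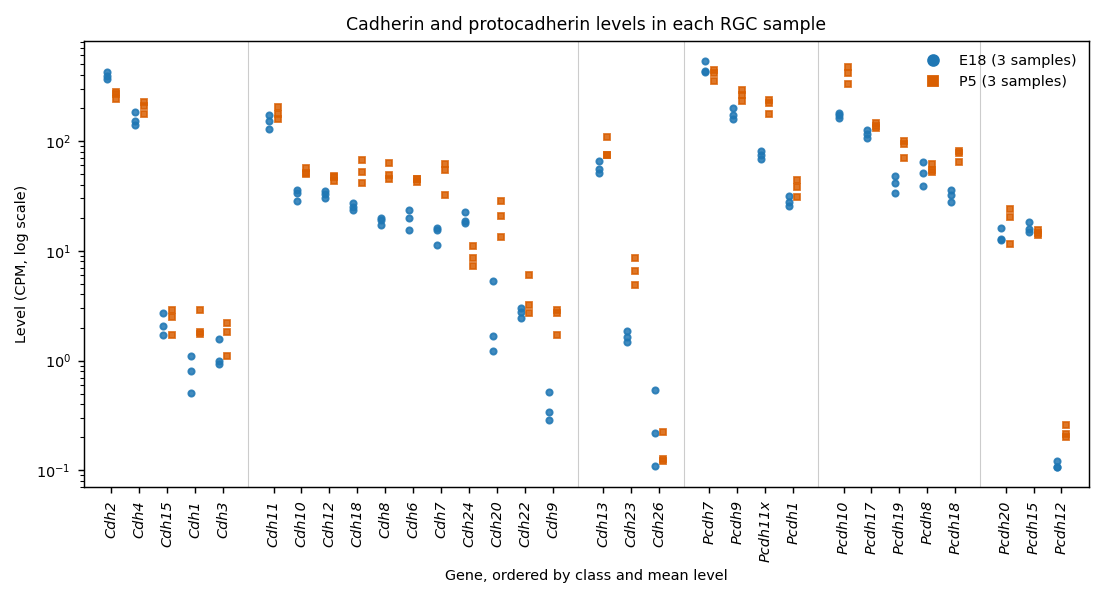
Level of every tested cadherin and non-clustered protocadherin in CPM on a log axis, by class, with the 3 E18 samples as circles and the 3 P5 samples as squares. Levels are not corrected for gene length, so each gene is to be read between its own ages: the points of Cdh20 and Cdh9 lie farthest apart, with log2 fold changes of -2.93 and -2.67.

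The purity of the samples was read from lists of cell type markers. RGC markers summed to 10149 to 11650 CPM at E18 and 10120 to 11189 CPM at P5. Of these 12 markers 4 were called higher at E18 (Isl1, Sncg, Tubb3 and Gap43) and 3 lower (Thy1, Nefl and Slc17a6). Thy1, the antigen of the purification, had a log2 fold change of -1.16 and Isl1 one of 1.10. The similar sums therefore do not show that the RGC content was equal at both ages. Markers of microglia (1.33 to 2.5 CPM), fibroblasts (2.65 to 4.80) and photoreceptors (3.20 to 9.58) were low in every sample, as were those of pigment epithelium (7.07 to 12.8 CPM), and no marker was at 0 in all samples. Amacrine markers summed to 1493 to 1708 CPM at E18 and 1791 to 2005 CPM at P5, most of it Calb2 and Pax6, which RGCs also express. Of the 10 amacrine markers 5 were called higher at E18 and 1, Calb2, lower, with a median log2 fold change of 2.5 for the list. Among the 5, the amacrine factor Tfap2b was at 47.5, 119 and 1.62 CPM at E18 and 1.02, 1.55 and 1.44 CPM at P5, so that E18 replicates 1 and 3 stood far above the other samples. Markers of Müller glia and astrocytes summed to 404 to 449 CPM at E18 and 271 to 326 CPM at P5. Most of this was Glul (mean 320 CPM at E18 and 251 at P5) and Vim (87.6 and 38.7 CPM), while Gfap had at most 11 counts in any sample. Oligodendrocyte markers summed to 70.8 to 73.5 CPM at E18 and 35.6 to 59.4 CPM at P5. Most of this was Mbp (mean 46.0 CPM at E18 and 35.2 at P5) and Mog (21.0 and 8.64 CPM), while Sox10 had at most 10 counts in any sample. Dividing-cell markers summed to 297.5, 120.8 and 74.9 CPM in E18 replicates 1, 3 and 4 and to 54.6 to 69.1 CPM at P5, and retinal progenitor markers to 279, 133 and 41.5 CPM and 25.0 to 36.8 CPM. E18 replicates 1 and 3 therefore carried more RNA of dividing and progenitor type than any other sample, and calls of named genes that were lost without either are given beside the gene. The part of these cells in the levels reported here was not tested. Between 81213639 and 114512853 reads were counted per sample.

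Promoter sequence is shown for the type II cadherins that changed at least 2-fold, since these members carried the largest differences between the ages and moved in both directions. The window is the 250 bases before the RefSeq start (build GRCm38.p6), printed 5′ to 3′ on the strand of the gene, for the 4 genes of this kind whose window lay wholly before the start annotated by GENCODE. Capitals mark the GC box GGGCGG on either strand.
Cdh24 (chr14:54641365-54641614, minus strand), higher at E18: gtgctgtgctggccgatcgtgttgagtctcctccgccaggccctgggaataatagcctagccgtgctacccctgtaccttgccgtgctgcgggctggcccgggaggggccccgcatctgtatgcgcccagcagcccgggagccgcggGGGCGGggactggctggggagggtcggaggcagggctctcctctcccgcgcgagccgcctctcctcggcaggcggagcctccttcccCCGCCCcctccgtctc
Cdh8 (chr8:99416472-99416721, minus strand), lower at E18: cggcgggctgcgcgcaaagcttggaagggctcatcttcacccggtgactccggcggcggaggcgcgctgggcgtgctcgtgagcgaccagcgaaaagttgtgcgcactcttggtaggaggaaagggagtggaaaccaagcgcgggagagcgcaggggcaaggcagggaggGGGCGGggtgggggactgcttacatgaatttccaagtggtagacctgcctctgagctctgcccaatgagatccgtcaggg
Cdh6 (chr15:13173676-13173925, minus strand), lower at E18: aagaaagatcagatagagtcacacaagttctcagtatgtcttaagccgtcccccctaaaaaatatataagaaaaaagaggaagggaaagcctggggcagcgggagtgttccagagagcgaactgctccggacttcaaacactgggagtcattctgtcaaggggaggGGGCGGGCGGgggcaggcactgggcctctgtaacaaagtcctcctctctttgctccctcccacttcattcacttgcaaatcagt
Cdh20 (chr1:104768270-104768519, plus strand), lower at E18: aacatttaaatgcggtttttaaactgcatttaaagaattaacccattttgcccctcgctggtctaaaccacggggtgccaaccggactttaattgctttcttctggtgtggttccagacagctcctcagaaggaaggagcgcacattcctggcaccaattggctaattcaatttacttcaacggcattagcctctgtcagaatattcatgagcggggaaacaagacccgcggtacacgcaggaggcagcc
The first 3 of these windows hold a GC box, that of the gene higher at E18 among them, and the window of Cdh20 holds none. The type II genes Cdh7, Cdh9 and Cdh18 also changed at least 2-fold, but their windows did not lie wholly before the GENCODE start. Those windows are not printed and hold no GC box either. Promoters of 22 of the 35 members were in the RefSeq table. GGGCGG was found in 9 of the 22, against 32.7% of the 32851 promoters in the table searched over the same length and on both strands. The ETS core CCGGAAG, bound by the factor family of Elk-1, was in 0 of 22 (6.91% of all promoters), the E-box CACCTG of Snail and Zeb in 2 of 22 (17.2%) and TATAAA in 2 of 22 (12.4%). Median GC content was 58.2% over the members (36.8% to 77.6%) and 52.4% over all promoters. These are matches of letters in a short window and say nothing on binding.

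Among the 5 type I cadherins, the neural N-cadherin was higher at E18, the epithelial E-cadherin was lower and 3 did not pass the test. Cdh2, the main cadherin of neural tissue, was at 366, 428 and 387 CPM at E18 and 270.1, 278 and 239 CPM at P5. Each E18 sample was above each P5 sample, and the difference was 1.5-fold (0.59, standard error 0.10, adjusted p = 0.00223). Cdh4, the R-cadherin first described in retina, was at 151, 139.7 and 184 CPM at E18 and 209, 175 and 224 CPM at P5. P5 replicate 8 lay within the E18 values, and the difference of -0.36 (standard error 0.13) did not pass (adjusted p = 0.0537). Over the other fits the adjusted p of Cdh4 ran from 0.0142 to 0.195 and passed in 6 of 13.

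The other type I members had low levels. Cdh1, the E-cadherin of epithelia, was at 1.11, 0.803 and 0.508 CPM at E18 and 1.84, 1.76 and 2.88 CPM at P5, and the groups did not overlap (-1.42, standard error 0.34, adjusted p = 0.0103). The P-cadherin Cdh3 was at 1.58, 0.936 and 0.994 CPM at E18 and 1.83, 1.10 and 2.18 CPM at P5, with E18 replicate 1 among the P5 values (-0.54, standard error 0.33, adjusted p = 0.207). Cdh15, the M-cadherin of skeletal muscle, was at 2.05, 1.69 and 2.74 CPM at E18 and 2.52, 1.70 and 2.89 CPM at P5. Both ages covered the same range for Cdh15 (-0.13, standard error 0.27, adjusted p = 0.721), and its sign turned without E18 replicate 3 (0.02) and without P5 replicate 9 (0.04). The summed type I level was 522, 571 and 575 CPM at E18 and 485, 458 and 471 CPM at P5, with each E18 sum above each P5 sum.

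The type II cadherins held the most called members. Of 13 genes in the count table, 11 were tested, 8 were lower at E18, 1 was higher and 2 did not pass, with a median log2 fold change of -1.08. Their summed level was 330.2, 340 and 289 CPM at E18 and 512, 485 and 543 CPM at P5, so that every P5 sample exceeded every E18 sample.

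The largest difference was that of Cdh20 (chr1:104768529-104995481), a type II cadherin of embryonic neural territories. It was at 5.32, 1.68 and 1.23 CPM at E18 and 20.7, 13.2 and 28.2 CPM at P5, on 441, 188 and 111 counts at E18 and 1838, 1304 and 2653 counts at P5. The ages did not overlap, and P5 was higher by 7.61-fold (-2.93, standard error 0.53, adjusted p = 0.00308). The 3 E18 values had a coefficient of variation of 81.9% and fell in the same order as the dividing-cell sums, replicate 1 above 3 above 4. Among tested members Cdh1, Cdh8, Cdh10, Cdh22, Pcdh11x and Pcdh19 had this order too. Pcdh7, Pcdh17, Cdh13, Pcdh20 and Cdh24 had the reverse order. The part of dividing cells in these levels was not tested. Without E18 replicate 1 the log2 fold change of Cdh20 was -3.83 (adjusted p = 0.000585). Cdh7 (chr1:109982431-110140157), on the same chromosome and another type II cadherin of neuronal subsets, was at 15.5, 11.2 and 15.9 CPM at E18 and 54.5, 32.2 and 61.1 CPM at P5. All P5 samples were above all E18 samples, with P5 replicate 8 the lowest of its age for both genes (-1.79, standard error 0.24, adjusted p = 0.000895).

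Cdh8 (chr8:99024471-99416471), which marks a type of OFF bipolar cell and subsets of other retinal neurons, was at 20, 19.1 and 17.2 CPM at E18 and 49.0, 44.9 and 63.3 CPM at P5. The E18 samples were within a narrow range well under the P5 samples, a 2.79-fold difference (-1.48, standard error 0.14, adjusted p = 0.000270). Cdh9, also a bipolar cell type marker and a partner in direction-selective circuits, was at 0.518, 0.285 and 0.342 CPM at E18 and 2.87, 1.70 and 2.71 CPM at P5, on 43, 32 and 31 counts at E18 and 254, 167 and 255 counts at P5. Low as it was, its groups were separate (-2.67, standard error 0.33, adjusted p = 0.000647). Bipolar markers summed to 58.5 to 87.2 CPM at E18 and 94.1 to 116 CPM at P5, while the defining bipolar genes Grm6 and Vsx1 had at most 3 and 5 counts in any sample. The part of bipolar cells in the levels of Cdh8 and Cdh9 was not tested.

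**Figure D2:**
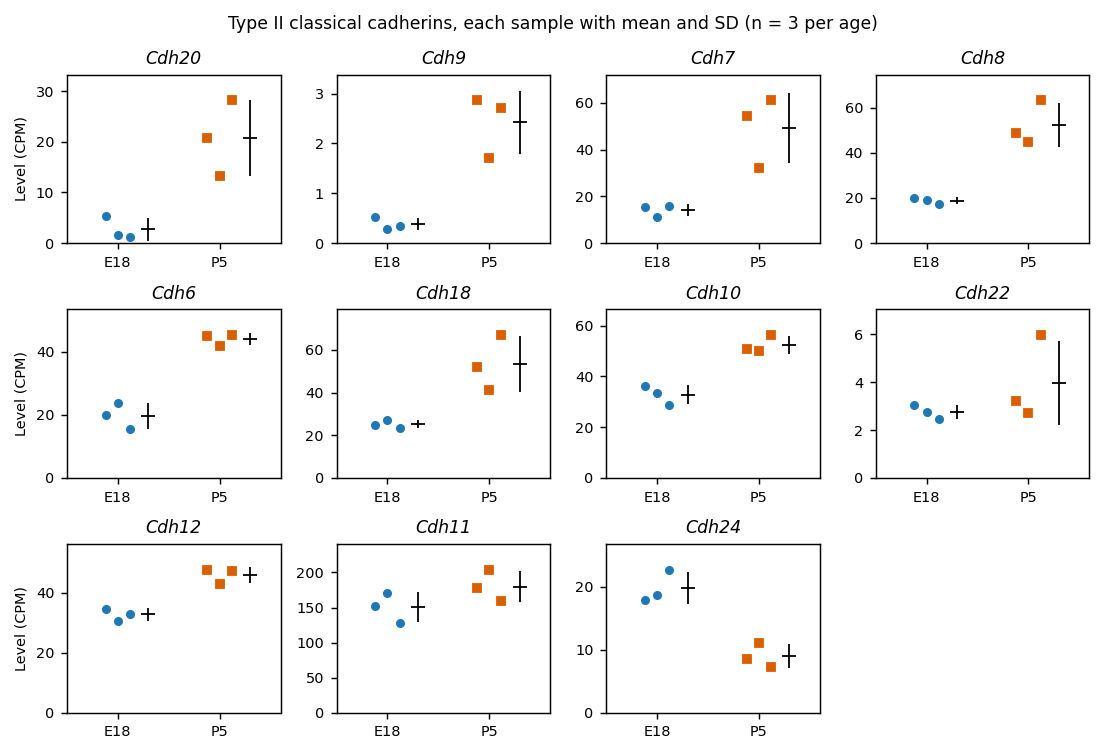
Levels of the 11 tested type II cadherins in CPM on linear axes that start at 0, 1 panel per gene, with each sample as a point and the mean with its SD (n = 3 per age) as a cross at its side. Cdh24 has all E18 points above P5, Cdh11 and Cdh22 overlap between the ages, and the other 8 have all P5 points above E18.

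Chromosome 15 carries 5 type II genes, and all of them were lower at E18, where 25.0% of the 607 tested genes of the chromosome were. Cdh6 (chr15:13028701-13173675), which marks RGCs that project to particular brain nuclei and a set of direction-selective cells, was at 20, 23.6 and 15.5 CPM at E18 and 45.2, 42.0 and 45.3 CPM at P5. The P5 samples were close to each other and all above E18 (-1.16, standard error 0.15, adjusted p = 0.000798). Cdh10 (chr15:18818947-19014236), expressed with Cdh6 and Cdh9 in direction-selective circuits, was at 36.1, 33.6 and 28.6 CPM at E18 and 50.8, 50.0 and 56.3 CPM at P5, again without overlap (-0.68, standard error 0.11, adjusted p = 0.00222). Cdh12 (chr15:20449265-21589533), a brain cadherin of neuronal subsets, was at 34.7, 30.5 and 33.0 CPM at E18 and 47.6, 42.9 and 47.1 CPM at P5. It had the smallest difference of the 5, 1.40-fold, yet its samples were tight enough to separate (-0.49, standard error 0.10, adjusted p = 0.00488). Cdh18 (chr15:22549022-23474418), also largely a brain cadherin, was at 25.0, 27.4 and 23.3 CPM at E18 and 52.1, 41.0 and 66.9 CPM at P5, a 2.11-fold difference in which P5 replicate 8 was the lowest P5 sample (-1.08, standard error 0.17, adjusted p = 0.00170). The fifth gene was Cdh9 (chr15:16728756-16857094).

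Cdh24 (chr14:54631231-54641364), a type II cadherin that binds catenins, was the exception. Its level was 17.9, 18.7 and 22.7 CPM at E18 and 8.5, 11.1 and 7.31 CPM at P5. Every E18 sample was above every P5 sample, by 2.20-fold in the fit (1.14, standard error 0.17, adjusted p = 0.00154). Cdh11, the OB-cadherin found in mesenchyme and neural tissue, had the highest type II level per kb at both ages. It was at 152, 171 and 129 CPM at E18 and 177, 204 and 159 CPM at P5. The ages overlapped and it did not pass (-0.26, standard error 0.13, adjusted p = 0.143). Cdh22 was at 3.04, 2.76 and 2.45 CPM at E18 and 3.21, 2.72 and 5.96 CPM at P5, with P5 replicate 9 apart from the others (-0.53, standard error 0.30, adjusted p = 0.179).

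The 2 remaining type II genes were below the filter. Cdh5, the VE-cadherin that defines endothelium, had 1, 0 and 0 counts at E18 and 0, 6 and 1 counts at P5, and Cdh19, a cadherin of Schwann cells, had 2, 0 and 0 counts at E18 and 0, 2 and 2 counts at P5. At the depth of these samples this is close to no signal.

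Within the classical cadherins Cdh2 took a smaller share at P5 than at E18 and the type II genes a larger one. Cdh2 made up 45.1%, 49.1% and 47.4% of the classical cadherin level, summed as CPM per kb of exon, at E18 and 29.2%, 31.6% and 25.1% at P5. Type II genes made up 40.5%, 38.7% and 35.4% at E18 and 53.5%, 53.3% and 56.5% at P5. Both shares were separate between the ages in all samples. Cdh11 kept a share of 15.8% ± 1.79 (SD, n = 3) at E18 and 17.3% ± 2.83 at P5, whereas the type II genes other than Cdh11 went from 22.4% ± 1.43 to 37.2% ± 4.48. The shares are given without a test, since they are built from levels tested above.

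**Figure D3:**
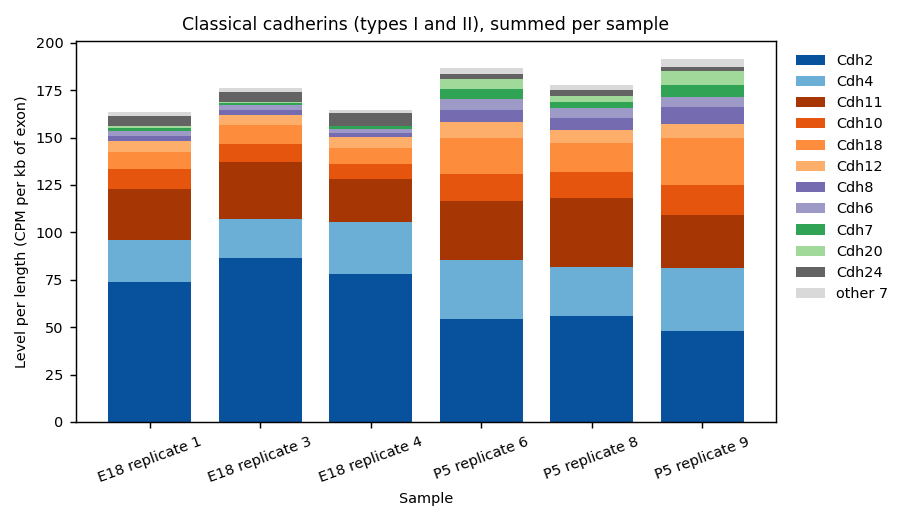
Stacked bars of the level per length, in CPM per kb of exon, of the classical cadherins in each of the 6 samples, with 11 genes in colours of their own and the other 7 together in grey. The Cdh2 segment at the base is 45.1% to 49.1% of the bar at E18 and 25.1% to 31.6% at P5.

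The remaining cadherins have no classical catenin-binding tail or are structurally distant. Cdh13, the T-cadherin held to the membrane by a lipid anchor, was at 51.1, 55.0 and 66.4 CPM at E18 and 75.2, 74.7 and 109.6 CPM at P5. All P5 samples were above E18, with P5 replicate 9 the highest (-0.59, standard error 0.17, adjusted p = 0.0212), but the call was lost without E18 replicate 1 (adjusted p = 0.0735) or 3 (adjusted p = 0.0746). Cdh23 (chr10:60302748-60696490), 1 part of the tip link of inner ear hair cells, was at 1.65, 1.46 and 1.88 CPM at E18 and 6.49, 4.90 and 8.56 CPM at P5. This was a 3.99-fold difference with no overlap (-2.0, standard error 0.24, adjusted p = 0.000614). Cdh26 had 18, 61 and 10 counts at E18 and 20, 12 and 12 counts at P5, and its log2 fold change (0.90, standard error 0.59, adjusted p = 0.242) rested on E18 replicate 3, since it was 0.05 without that sample. Cdh16 of kidney tubules had 3, 4 and 4 counts at E18 and 7, 5 and 1 counts at P5, and Cdh17 of liver and intestine had 1, 2 and 0 counts at E18 and 1, 4 and 7 counts at P5. Neither was tested.

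Of the 4 delta-1 protocadherins 3 were lower at E18 and none was higher. Pcdh11x (chrX:120290259-120910619), an X-linked member expressed in brain, was at 80.8, 74.0 and 68.3 CPM at E18 and 236, 176 and 219.8 CPM at P5. Each P5 sample held more than 2 times the level of each E18 sample, and the groups did not overlap (-1.5, standard error 0.13, adjusted p = 0.000166). Pcdh9, a broadly neuronal member, was at 174, 201 and 159 CPM at E18 and 262, 231 and 288 CPM at P5, the ages lying apart by a smaller margin (-0.55, standard error 0.12, adjusted p = 0.00685). Pcdh1 was at 27.8, 25.5 and 31.4 CPM at E18 and 31, 38.3 and 44.0 CPM at P5. P5 replicate 6 lay within the E18 range (-0.42, standard error 0.14, adjusted p = 0.0432), and Pcdh1 was past the threshold only while all of E18 replicates 1 and 3 and P5 replicates 8 and 9 were in the fit (adjusted p from 0.0563 to 0.159 with 1 of them left out). Pcdh7, known for its part in RGC and retinal axon growth, was at 428, 436 and 534 CPM at E18 and 417, 352 and 441 CPM at P5. The ages overlapped and it did not pass the test (0.21, standard error 0.12, adjusted p = 0.193).

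Of the 5 delta-2 protocadherins 3 were lower at E18, all by more than 2-fold, and their summed level was 401, 403 and 431 CPM at E18 and 746, 690 and 839 CPM at P5. Pcdh10 (chr3:45378398-45435623), which recruits the WAVE complex during axon growth, was at 162, 179.6 and 171 CPM at E18 and 412, 328 and 470.4 CPM at P5, a 2.36-fold difference with tight E18 samples and no overlap (-1.24, standard error 0.13, adjusted p = 0.000363). Pcdh18 (chr3:49743296-49757325), a binding partner of the reelin adaptor Dab1, lies on chromosome 3 as Pcdh10 does. Its level was 32.2, 28.1 and 35.7 CPM at E18 and 80.7, 63.8 and 76.9 CPM at P5, again separate (-1.21, standard error 0.13, adjusted p = 0.000362). Pcdh19 (chrX:133582860-133688987), an X-linked protocadherin that forms complexes with N-cadherin, was at 47.9, 41.2 and 33.4 CPM at E18 and 70.0, 99.5 and 93.2 CPM at P5. Its P5 samples were all higher, replicate 6 the least so (-1.10, standard error 0.17, adjusted p = 0.00147).

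Both other delta-2 members did not pass. Pcdh17, which like Pcdh10 acts through the WAVE complex, was at 107, 115 and 127 CPM at E18 and 132, 145 and 136 CPM at P5. The samples did not overlap, yet the difference was small (-0.24, standard error 0.09, adjusted p = 0.0656), and it passed only under a filter of 1 CPM in 3 samples (adjusted p = 0.0487). Pcdh8, the activity-regulated arcadlin, was at 51.5, 39.1 and 64.2 CPM at E18 and 52.3, 54.2 and 62.1 CPM at P5. E18 replicates 3 and 4 were the lowest and the highest of all samples (-0.12, standard error 0.17, adjusted p = 0.581), and without replicate 3 the sign turned (0.05). Among the delta genes as a whole, the delta-2 share of the summed CPM per kb was 34.7% ± 1.6 (SD, n = 3) at E18 and 42.3% ± 1.23 at P5. Pcdh7 went from 36.0% ± 2.61 to 22.5% ± 0.598 of that sum, Pcdh10 from 8.53% ± 0.574 to 14.4% ± 1.2 and Pcdh11x from 4.93% ± 0.645 to 9.98% ± 0.982.

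Outside the delta group, Pcdh15, the other part of the hair cell tip link, was at 15.9, 18.328 and 14.9 CPM at E18 and 14.4, 15.5 and 13.8 CPM at P5 and did not pass (0.17, standard error 0.12, adjusted p = 0.284). Pcdh20 was at 12.6, 12.9 and 16.0 CPM at E18 and 20.2, 11.6 and 24.0 CPM at P5. P5 replicate 8 was below every E18 sample and the other P5 samples were above them, so that the difference (-0.42, standard error 0.24, adjusted p = 0.185) passed without P5 replicate 8 (log2 fold change -0.69, adjusted p = 0.00497). Pcdh12, an endothelial protocadherin, had 9, 12 and 11 counts at E18 and 23, 21 and 19 at P5. It was called lower at E18 only just (-0.99, standard error 0.36, adjusted p = 0.0498) and lost the call in 10 of 12 other fits (adjusted p up to 0.190), among them those without E18 replicate 1 (0.142) and 3 (0.168). The endothelial gene Pecam1 was at 0.603, 0.562 and 0.895 CPM at E18 and 2.67, 2.09 and 2.46 CPM at P5. The endothelial markers summed to 16.6 to 72.8 CPM at E18, most of it Kdr (69.5, 62.9 and 14.1 CPM), and to 14.8 to 17.9 CPM at P5. Of 8 tested, 1 (Kdr) was higher at E18, 3 (Pecam1, Tek and Rgs5) were lower and 4 were not called. The part of endothelial cells in the level of Pcdh12 was not tested.

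**Figure D4:**
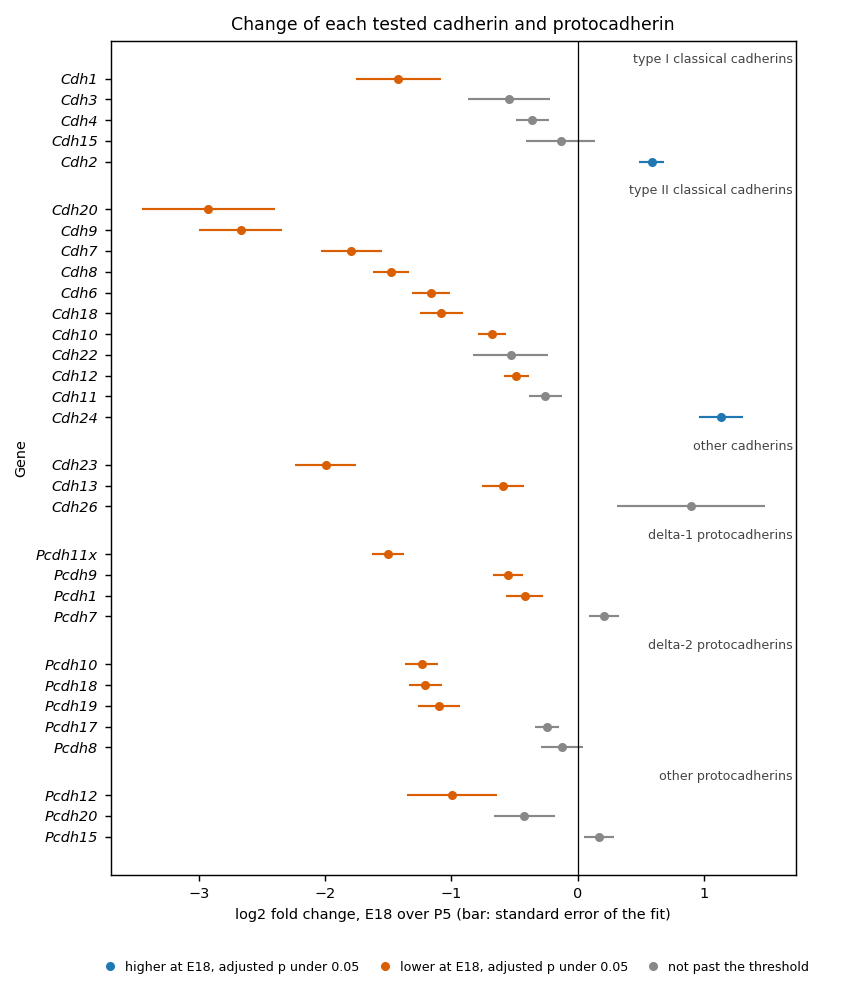
Log2 fold change of E18 over P5 for the 31 tested members by class, with bars of 1 standard error of the fit, in blue (higher at E18) or orange (lower) where the adjusted p is under 0.05 and in grey otherwise. Of the 20 coloured points 18 lie below 0, down to -2.93 for Cdh20, and 2 above it, Cdh2 at 0.59 and Cdh24 at 1.14.

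Counted by samples alone, 18 of the 31 had all E18 samples below all P5 samples and 2 the reverse, where 28.5% and 27.6% of all tested genes were so placed. The 18 without overlap and the 18 called lower were not the same list, for Pcdh17 belonged to the first only and Pcdh1 to the second only. A negative log2 fold change was found in 26 of the 31, and in 24 to 26 when any 1 sample was left out.

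Compared between genes per kilobase of exon, Cdh2 had the highest level at both ages, 79.5 ± 6.37 CPM per kb (SD, n = 3) at E18 and 52.9 ± 4.19 at P5. At E18 it was followed by Pcdh7 (45.6 ± 5.8), Pcdh9 (27.3 ± 3.30), Cdh11 (26.7 ± 3.78) and Cdh4 (23.3 ± 3.38). The samples of Cdh2 and of Pcdh7 were apart from their neighbours in this order, whereas those of Pcdh9, Cdh11 and Cdh4 overlapped. At P5 Cdh2 was followed by Pcdh9 (40.0 ± 4.40), Pcdh7 (39.5 ± 4.52), Cdh11 (31.9 ± 3.98), Cdh4 (29.9 ± 3.69) and Pcdh10 (25.4 ± 4.52), and all Cdh2 samples lay above all Pcdh9 samples. From Pcdh9 onward the samples of each gene overlapped those of the next. Pcdh10 stood at 10.8 ± 0.537 CPM per kb at E18, and at P5 it had reached the range of Cdh4. Among the tested members, Cdh23, Cdh15, Cdh1, Cdh3, Cdh9, Cdh26 and Pcdh12 were under 1 CPM per kb at both ages. The exon length is that of all annotated exons together, so a gene that uses few of them reads low.

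Many members are long genes. Of the 31 tested, 19 span at least 100 kb, of which 13 were lower at E18, 1 higher (Cdh2) and 5 not called. Over all 2279 tested genes of that span, 32.7% were lower and 19.2% higher. The median log2 fold change was -0.68 for the long members and -0.11 for all long genes. By chromosome, both tested members were lower at E18 on chromosome 1 (Cdh7, Cdh20), on chromosome 3 (Pcdh10, Pcdh18) and on X (Pcdh11x, Pcdh19). All 3 tested members on chromosome 2 (Cdh4, Cdh22, Cdh26) were not called. Of the 5 on chromosome 14, Cdh24 was higher, Pcdh9 lower and the other 3 (Pcdh8, Pcdh17, Pcdh20) not called. Of the 6 tested on chromosome 8, 3 were lower (Cdh1, Cdh8, Cdh13) and 3 not called (Cdh3, Cdh11, Cdh15). On chromosome 18 Cdh2 was higher and Pcdh1 and Pcdh12 lower. On chromosome 10 Cdh23 was lower and Pcdh15 not called, as was Pcdh7 on chromosome 5. A share of all tested genes was taken for chromosome 15 only, so the other counts stand without a background. In the GENCODE annotation, transcripts of the opposite strand overlap exons of Pcdh8 (436 bases of 4 kb) and Cdh9 (224 bases of 3.54 kb). The overlaps are smaller for Pcdh10 (154 bases of 15.9 kb), Pcdh19 (57 of 10.3 kb) and Cdh8 (23 of 7.26 kb). The counts were made on RefSeq genes, and no source says whether the counting used strand. Reads from these overlapping stretches therefore cannot be told apart.

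Over the 59 tested genes of 8 lists of proteins that work with cadherins or resemble them, 13 were higher and 13 lower at E18, beside 2 and 18 among the 31 members. The 13 lower genes are 22.0% of the 59, and the 13 higher genes are as many. Both are near the shares of all tested genes, 22.5% lower and 20.8% higher. The counts of the single lists below stand beside the same shares, and each list is short. The partner calls fell to 17, 8 higher and 9 lower, without E18 replicate 1 and likewise without replicate 3, and to 15, 7 higher and 8 lower, without P5 replicate 6. Catenins and other junction adaptors, which link classical cadherins to actin, had 5 of 14 higher and 0 lower. The alpha-catenin Ctnna1 was at 51.6, 47.8 and 40.2 CPM at E18 and 24.3, 20.3 and 19.5 CPM at P5. All E18 samples were above all P5 samples (1.12, standard error 0.13, adjusted p = 0.000537). E18 replicate 1, with the highest dividing-cell sum (297.5 CPM), had the most Ctnna1. Replicate 4, with the lowest E18 sum (74.9 CPM), had the least of its age. The part of dividing cells in the level of Ctnna1 was not tested. Ctnna2, the neuronal alpha-catenin, was at 513, 559.9 and 579 CPM at E18 and 449, 472 and 376 CPM at P5, a small difference with no overlap (0.35, standard error 0.11, adjusted p = 0.0268). The call of Ctnna2 was lost without E18 replicate 3 or 4 or P5 replicate 6 or 9 (adjusted p from 0.0534 to 0.0847). Ctnnd1, the p120 catenin that keeps cadherins at the membrane, was at 127, 109.5 and 122 CPM at E18 and 81.8, 84.6 and 70.4 CPM at P5, with E18 above P5 in every pair of samples (0.60, standard error 0.10, adjusted p = 0.00259).

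The beta-catenin Ctnnb1, which binds the cadherin tail, was at 802, 854 and 869.9 CPM at E18 and 914, 844 and 876 CPM at P5, and the difference did not pass (-0.06, standard error 0.08, adjusted p = 0.566). Ctnnd2, the neuronal delta-catenin, was at 223, 223 and 222 CPM at E18 and 208, 254 and 249 CPM at P5 and did not pass either (-0.09, standard error 0.10, adjusted p = 0.469). In the list of the WAVE complex and other protocadherin partners 0 of 11 were higher and 3 lower at E18, the complex subunits Wasf3 (log2 fold change -0.69), Abi1 (-0.34) and Nckap1 (-0.30). Of 6 proteases that cut or mature cadherins, the sheddase Adam10 (0.51) and the gamma-secretase subunit Ncstn (0.33) were higher and the presenilin Psen2 (-0.54) lower. Of 4 nectins 1, Pvrl2 (0.36), was higher. These 7 genes were named after their values were seen. The calls of Wasf3, Adam10 and Psen2 held with any 1 sample left out. That of Abi1 was lost without E18 replicate 1 (adjusted p = 0.0629). Those of Nckap1, Ncstn and Pvrl2 were lost without any 1 of the E18 samples or P5 replicate 6 (Nckap1 and Ncstn also without P5 replicate 9), with adjusted p up to 0.116 for Nckap1, 0.160 for Ncstn and 0.0913 for Pvrl2.

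**Figure D5:**
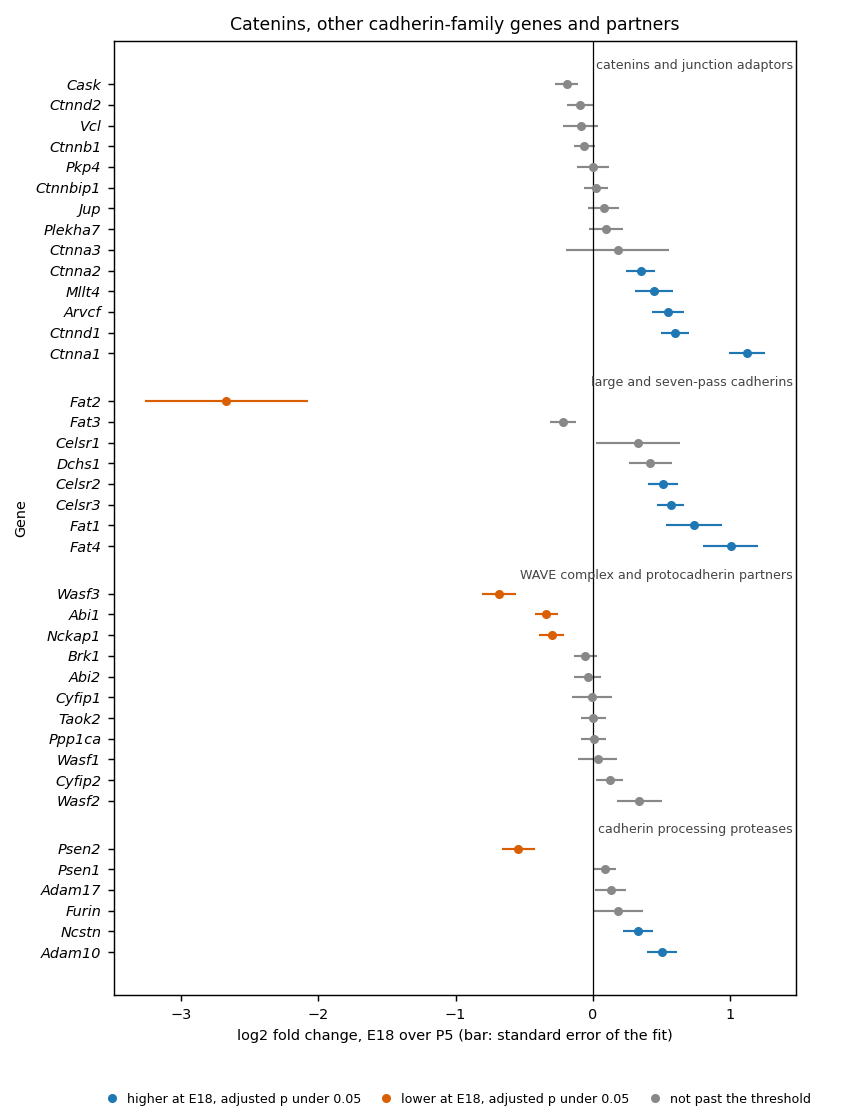
Log2 fold change of E18 over P5, with bars of 1 standard error of the fit, for the tested genes of 4 of the partner lists, in blue (higher at E18) or orange (lower) where the adjusted p is under 0.05 and in grey otherwise. Catenins and adaptors have 5 blue points and 0 orange, the large and seven-pass cadherins 4 and 1, the list of the WAVE complex 0 and 3 and the proteases 2 and 1.

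The large and seven-pass cadherins had 4 of 8 higher and 1 lower at E18. Fat4, a giant cadherin of planar polarity and growth control, was at 137, 167 and 109 CPM at E18 and 61.9, 88.6 and 55.2 CPM at P5, with all E18 samples higher (1.00, standard error 0.20, adjusted p = 0.00500). Calsyntenins, cadherin-like proteins of synapses and axonal transport, had 0 of 3 higher and 2 lower. Among 6 cadherin-related and desmosomal genes 2 were lower, of which Cdhr1, a cadherin of photoreceptor outer segments, was at 4.85, 3.08 and 2.58 CPM at E18 and 16.8, 13.0 and 21.8 CPM at P5. Its groups were far apart (-2.30, standard error 0.27, adjusted p = 0.000549), while photoreceptor markers summed to 3.20 to 9.58 CPM at E18 and 3.29 to 4.81 CPM at P5.

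Of the 7 tested hair cell genes that work with Cdh23 and Pcdh15 at the tip link, 4 were lower at E18 and 1 was higher. Lhfpl5, which binds Pcdh15 in the transduction complex, was at 9.88, 10.5 and 12.7 CPM at E18 and 26.8, 13.3 and 27.3 CPM at P5. P5 replicate 8 lay close to the E18 samples and the other P5 samples well above (-1.03, standard error 0.26, adjusted p = 0.0126), and the call was lost without P5 replicate 6 (adjusted p = 0.0546).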

How the data were processed

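RGCs from 3 E18 and 3 P5 samples, grouped by their titles, were compared. Per the study's methods, paired-end reads were aligned to mm10 with STAR and counted on RefSeq genes with HT-seq, and the submitters' processing notes name CASAVA 1.8.2 and edgeR. The labels give both polyA RNA and ribosomal RNA depletion, and neither the strand setting nor the handling of multiply mapped reads is given in the sources used here. The authors deposited raw counts per gene and sample, and only these were tested. The normalized columns that the authors deposited hold a signal corrected for depth, and these, the deposited log2 ratios and p-values of the authors' own comparison and a rank were left aside.

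After TMM normalization and filterByExpr, 16449 of the 24060 genes entered a quasi-likelihood fit (edgeR 4.0.16, R 4.3.3), and p-values were adjusted over all of them by the Benjamini-Hochberg method and read at 0.05. Standard errors belong to the fitted model. A chi-square of 30.5 to 141 per degree of freedom separated same-age samples, so that the spread between samples, and not the depth of 81213639 to 114512853 counts, sets the precision of most members. The highest values were those of P5 replicate 8, 97.8 against replicate 6 and 141 against replicate 9. P5 replicates 6 and 9 differed by 71.9. Coordinates and exon lengths come from GENCODE (mm10) and promoters from RefSeq (GRCm38.p6). Genes were listed in full where their mean was at least 1 CPM or the test was passed. Partner genes were named if called, changed at least 2-fold and at a mean of at least 10 CPM, with Ctnnb1, Ctnna2, Ctnnd1 and Ctnnd2 added by the rule and 7 called genes of the WAVE, protease and nectin lists named outside it after their values were seen. The members were taken by a rule on the gene symbol alone. That rule, the partner and marker lists and the motifs were chosen with earlier results of these data known. Alternatives were other normalizations, low-count filters and tests (DESeq2 1.42.0 among them), and each sample left out in turn.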

Additional observations from a re-analysis of the deposited data

How the results depend on the processing

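Of the 31 tested members 20 were called, and 19 to 21 were called under upper-quartile or DESeq2 normalization, with no low-count filter or a filter of 1 CPM, and by the DESeq2, exact and likelihood ratio tests. With 1 sample left out, 17 to 20 were called, always 2 higher at E18 and 15 to 18 lower. Over all tested genes 7135 were called. This rose to 8796 without P5 replicate 8 and fell to 4575 to 5861 without any 1 other sample. Partner genes called numbered 26, 24 to 28 over the other settings and 15 to 29 with 1 sample left out (7 to 14 higher and 8 to 15 lower at E18). They were 17 without E18 replicate 1 or 3 and 15 without P5 replicate 6. Of the single values of members over these fits, 374 kept direction and side of the threshold, 16 lost the call, 8 gained one and 3 changed sign, Pcdh8 without E18 replicate 3 (0.046) and Cdh15 without E18 replicate 3 (0.02) or P5 replicate 9 (0.035). Their leave-one-out log2 fold changes ran from -0.31 to 0.05 for Pcdh8 and from -0.34 to 0.04 for Cdh15. The cause was not tested. Another scaling moved the median of all genes by under 0.1 on the log2 scale. Depth limits only the members at a few counts. No paired analysis was possible because the replicate numbers of E18 (1, 3 and 4) and P5 (6, 8 and 9) are not shared.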
